A study of Mus musculus with 12 samples.

Results

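The Phlpp1/2 double knockout was compared with wild type (WT) in chondrocytes of the mouse epiphysis, the cartilaginous end of a growing long bone. The comparison was made up of the libraries named for the 2 genotypes, 3 Phlpp1/2 KO and 3 WT, which are 6 of the 12 libraries in the series, and of the 16565 genes out of 49315 that passed a filter on low counts. Bulk RNA was sequenced from primary cells freed from the tissue by collagenase, stored frozen and then kept in culture with serum for a night. Phlpp1/2 KO mice lacked both genes by label, Phlpp1 KO and Phlpp2 KO mice, whose libraries appear here beside them, lacked 1 gene each, and WT mice lacked neither. All mice were 5 days old and labelled female. The strain was entered as C57BL8, C57BL9 and C57BL10 for Phlpp1/2 KO 1, 2 and 3, as C57BL6 for the Phlpp1 KO libraries, as C57BL6 or C57BL7 for the Phlpp2 KO libraries and as C57BL6 for WT. Which exons were removed, whether the WT mice were littermates and whether a library came from 1 animal or a pool is not stated in the labels, so the p-values below measure the spread between libraries.

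PHLPP1 and PHLPP2 are phosphatases with a pleckstrin homology domain and leucine-rich repeats. They remove an activating phosphate from AKT kinases and also act on protein kinase C, S6 kinase and other substrates, and AKT in turn holds FOXO transcription factors out of the nucleus. In cartilage, PHLPP1 is known as a brake on chondrocyte proliferation and on growth factor signalling through AKT and ERK.

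Library totals were 30744961, 32727208 and 33115345 counts in Phlpp1/2 KO and 21706337, 27829144 and 26658108 counts in WT, so that 1 count was worth at most 0.0322 CPM (counts scaled to library size with TMM factors) in Phlpp1/2 KO and 0.0453 CPM in WT. Across genes, which are no replicates of each other, log2 CPM correlated with Pearson's r of 0.9908 to 0.9937 among Phlpp1/2 KO libraries, 0.9913 to 0.9923 among WT libraries and 0.989 to 0.9914 between them. On the first principal component of the 6 libraries (29.71% of the variance), Phlpp1/2 KO lay at 16.95 to 19.24 and WT at -20.5 to -14.95. Chondrocyte markers were abundant in every library. Hapln1, the link protein of aggrecan, stood at 935 to 1025 CPM in Phlpp1/2 KO and 1017 to 1171 CPM in WT, and Col9a1, a cartilage collagen, at 604 to 1190 CPM in Phlpp1/2 KO and 809.9 to 1239 CPM in WT. Phlpp1/2 KO 1 went against its sex label: it had 3.768 CPM of Xist, the RNA of the inactive X chromosome, and 108.5 CPM in sum of Y-linked genes, against 386.7 and 568.9 CPM of Xist in the other Phlpp1/2 KO libraries and 277.9 to 421 CPM in WT. Results are therefore also given without that library.

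Both targeted genes were low in the Phlpp1/2 KO libraries. Phlpp1 (ENSMUSG00000044340, chromosome 1, 106171752 to 106394250, mm10) stood at 8.12, 7.71 and 8.83 CPM in Phlpp1/2 KO, at 8.77 to 9.46 CPM in Phlpp1 KO, at 37.9 to 44.6 CPM in Phlpp2 KO and at 43.8, 35.1 and 40.03 CPM in WT. Phlpp1/2 KO and WT did not overlap, and the log2 fold change was -2.27 (SE 0.10) with a Benjamini-Hochberg adjusted p = 3.45e-08 by the quasi-likelihood test of edgeR. The other target, Phlpp2 (ENSMUSG00000031732, chromosome 8, 109868542 to 109944671) stood at 11.1, 10.2 and 11.4 CPM in Phlpp1/2 KO, 22.8 to 24.9 CPM in Phlpp1 KO, 16.8 to 19.4 CPM in Phlpp2 KO and 28.1, 22.4 and 25.8 CPM in WT (log2 fold change -1.22, SE 0.10, adjusted p = 2.98e-05 against WT). Its level was thus lowest in Phlpp1/2 KO, below Phlpp2 KO as well (log2 fold change -0.70, adjusted p = 0.0185, edgeR). Reads of exons outside a removed part would still be counted, so the remaining level does not measure functional transcript. Per kilobase of exon, Phlpp1 averaged 1.22 CPM in Phlpp1/2 KO and 5.87 CPM in WT, and Phlpp2 averaged 1.29 CPM in Phlpp1/2 KO and 3.01 CPM in WT.

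In all, 39 of 16565 genes were called at an adjusted p under 0.05, 0.235% of those tested, with 17 higher (0.103%) and 22 lower (0.133%) in Phlpp1/2 KO. At an unadjusted p under 0.05 there were 1836 genes (11.1%), 827 higher and 1009 lower, which is the background for the lists below. DESeq2 called 160 genes over the whole table. The called set was made up of the targeted pair, 25 other protein-coding genes of the nuclear genome (12 higher and 13 lower), 2 genes of the mitochondrial genome, 9 pseudogenes and 1 other RNA. Of the 25 protein-coding genes, 4 changed at least 2-fold and the median absolute log2 fold change was 0.727. By class, 0.184% of nuclear protein-coding genes, 0.679% of pseudogenes and 7.41% of the mitochondrial genome's genes were called. In each of the 39 genes all Phlpp1/2 KO libraries lay on 1 side of all WT libraries, which was so for 18.9% of all genes tested (8.57% higher, 10.3% lower). When each of the 6 libraries was left out in turn, 17 of the 39 were called every time and 9 never. All of those 17 are the targeted genes, genes elsewhere on chromosomes 1 and 8, or genes with near-identical copies, described further on. Leaving out Phlpp1/2 KO 1 gave 23 calls, of which 21 are among the 39. Leaving out Phlpp1/2 KO 2 gave 21 and Phlpp1/2 KO 3 gave 34, while the fit lacking WT 1 gave 23, that lacking WT 2 gave 21 and that lacking WT 3 gave 18.

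**Figure D1:**
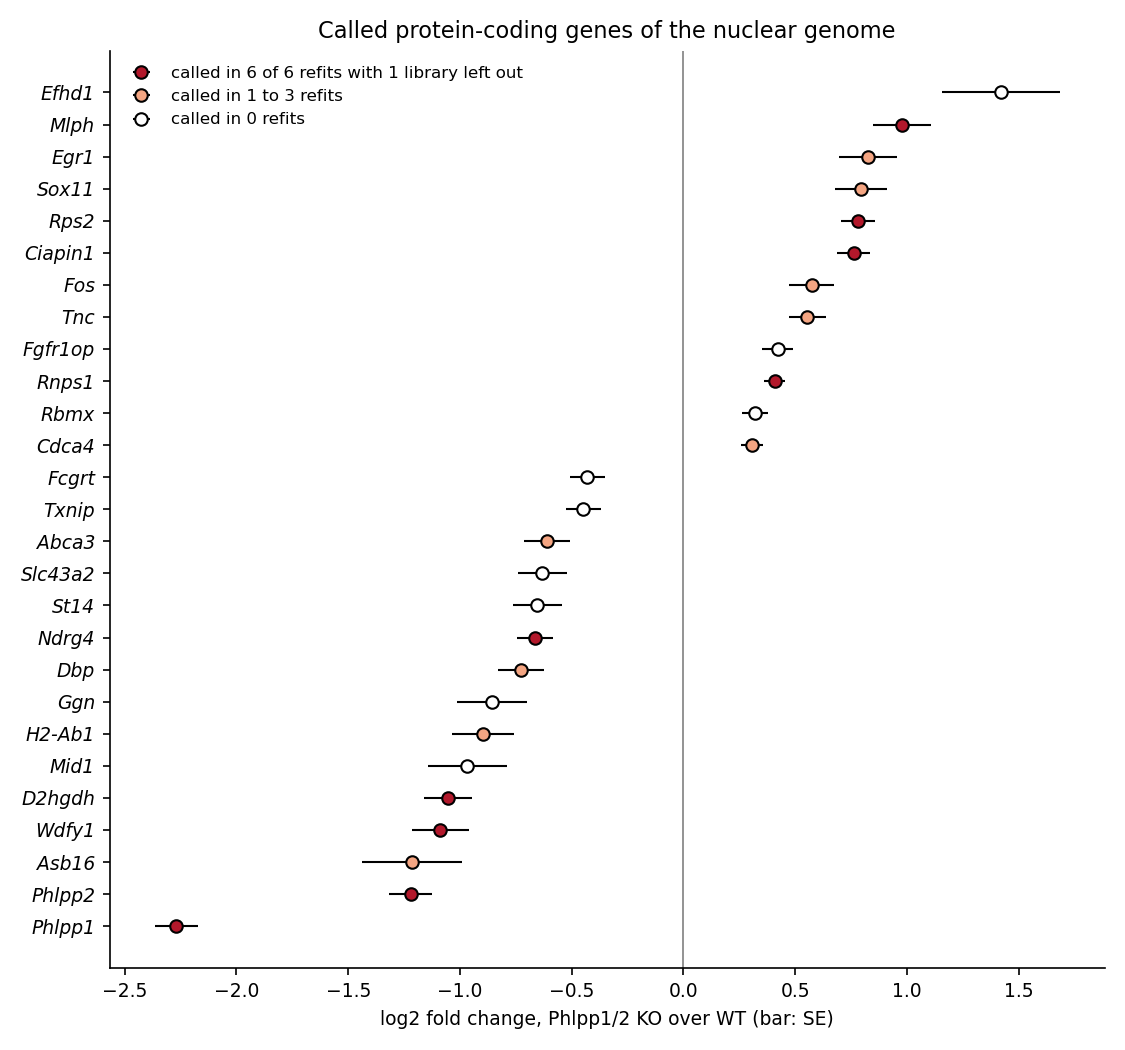
Log2 fold change with its SE (x axis) of the called protein-coding genes of the nuclear genome (rows), Phlpp1/2 KO over WT; fill shows in how many of 6 refits, each without 1 library, the gene was called. Phlpp1 lies lowest at -2.27 and Efhd1 highest at 1.42, and most other genes lie within about 1 of 0.

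Genes of the pathway on which the phosphatases act showed no call. Of 41 tested genes in a list of PHLPP, AKT and mTOR pathway members that leaves out the targeted genes, 17 had a log2 fold change above 0 and 24 below 0, with a median of -0.02, beside a median of -0.00 over all genes tested. None was called by edgeR (1 higher and 6 lower at an unadjusted p under 0.05), and DESeq2 called 1. Akt1 stood at 406, 411 and 385 CPM in Phlpp1/2 KO and 388, 383 and 404 CPM in WT (log2 fold change 0.03, SE 0.06, adjusted p = 0.879). Akt2, which has a near-identical pseudogene, did not pass the test of edgeR either (-0.10, SE 0.08, adjusted p = 0.656). The highest log2 fold change in the list was that of Inpp5d, the lipid phosphatase SHIP1 of blood cells, at 3.29, 1.90 and 2.33 CPM in Phlpp1/2 KO and 1.04, 1.12 and 1.11 CPM in WT (1.19, SE 0.32, adjusted p = 0.216). Inpp5d lies on chromosome 1, as Phlpp1 does, and averaged 2.29 CPM in Phlpp1 KO and 0.846 CPM in Phlpp2 KO.

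Egr1 and Fos, transcription factors of the immediate early response to growth factor signalling through ERK, rose. Egr1 stood at 99.1, 113 and 81.6 CPM in Phlpp1/2 KO and 53.0, 52.0 and 61.0 CPM in WT. Each Phlpp1/2 KO library was above each WT library, with averages of 79.1 CPM in Phlpp1 KO and 74.5 CPM in Phlpp2 KO in between. The log2 fold change was 0.83 (SE 0.13, adjusted p = 0.0238, edgeR). Fos (chromosome 12, 85473890 to 85477273), a subunit of AP-1, stood at 18.9, 22.97 and 18.8 CPM in Phlpp1/2 KO and 13.2, 12.6 and 14.99 CPM in WT, without overlap (0.57, SE 0.10, adjusted p = 0.0390). Both calls ended when Phlpp1/2 KO 1, Phlpp1/2 KO 2 or any WT library was left out, with adjusted p up to 0.131 for Egr1 and 0.183 for Fos and, without Phlpp1/2 KO 1, of 0.108 and 0.0848.

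The list of immediate early EGR and AP-1 genes had 26 of 27 members tested. Of these 22 lay above 0 and 4 below, with a median log2 fold change of 0.17, against -0.00 over all genes. In 12 members all Phlpp1/2 KO libraries were above all WT libraries and in 1 all were below. Over all genes these shares were 8.57% above and 10.3% below. DESeq2, which called more genes than edgeR over the whole table, called 4 members. Members that did not pass included, chosen here after their values were seen, Egr2, at 2.06, 3.24 and 2.45 CPM in Phlpp1/2 KO and 1.90, 1.297 and 1.34 CPM in WT (0.79, adjusted p = 0.219), and Arc, at 10.47, 14.3 and 9.66 CPM in Phlpp1/2 KO and 7.24, 6.20 and 7.19 CPM in WT (0.74, adjusted p = 0.192). Summed, the list stood at 1673, 1680.4 and 1689 CPM in Phlpp1/2 KO and 1581, 1457 and 1514 CPM in WT. Genes that ERK induces to limit itself had 13 of 20 members above 0 and a median of 0.03. None of these was called by edgeR or DESeq2. At an unadjusted p under 0.05, 5 were higher and 0 lower, beside 827 higher and 1009 lower of all 16565 genes tested. Without overlap, 6 were higher and 1 lower, beside 8.57% and 10.3% over all genes. The list summed to 1084, 1086 and 1156 CPM in Phlpp1/2 KO and 1028, 957 and 1015 CPM in WT. Dusp6, a phosphatase of ERK, stood at 103, 107 and 122 CPM in Phlpp1/2 KO and 96.2, 72.4 and 85.4 CPM in WT (0.39, SE 0.11, adjusted p = 0.238).

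The promoter of Fos is shown because Fos was called and for its matches to the core of the cyclic AMP response element. It runs from 250 bases before to 50 bases after the transcription start (chr12:85473640-85473939, plus strand, GRCm38.p6, RefSeq). Capitals mark TGACG, the core of the cyclic AMP response element, searched on both strands.
Fos promoter: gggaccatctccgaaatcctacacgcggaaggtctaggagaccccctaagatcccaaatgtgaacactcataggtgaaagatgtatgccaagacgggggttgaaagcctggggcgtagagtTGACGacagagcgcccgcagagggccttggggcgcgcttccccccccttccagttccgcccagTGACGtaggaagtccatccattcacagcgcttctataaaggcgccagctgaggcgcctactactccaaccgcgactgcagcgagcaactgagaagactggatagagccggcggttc
The matches begin at -129 and -66 from the start and do not overlap each other. TGACG was found in 5 of the 21 called protein-coding genes with a RefSeq promoter, 3 higher and 2 lower, beside 34.5% of the 10532 tested genes that had a promoter and 20.8% of all 32841 promoters of the same length. The CArG box, the element bound by serum response factor, was in 0 of the 21, beside 1.63% of the tested genes and of all promoters within this window. With a motif this rare, a count of 0 among 21 genes cannot set them apart from the others. A promoter was at hand for 21 of the 27 called genes, and sites outside the window were not searched.

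**Figure D2:**
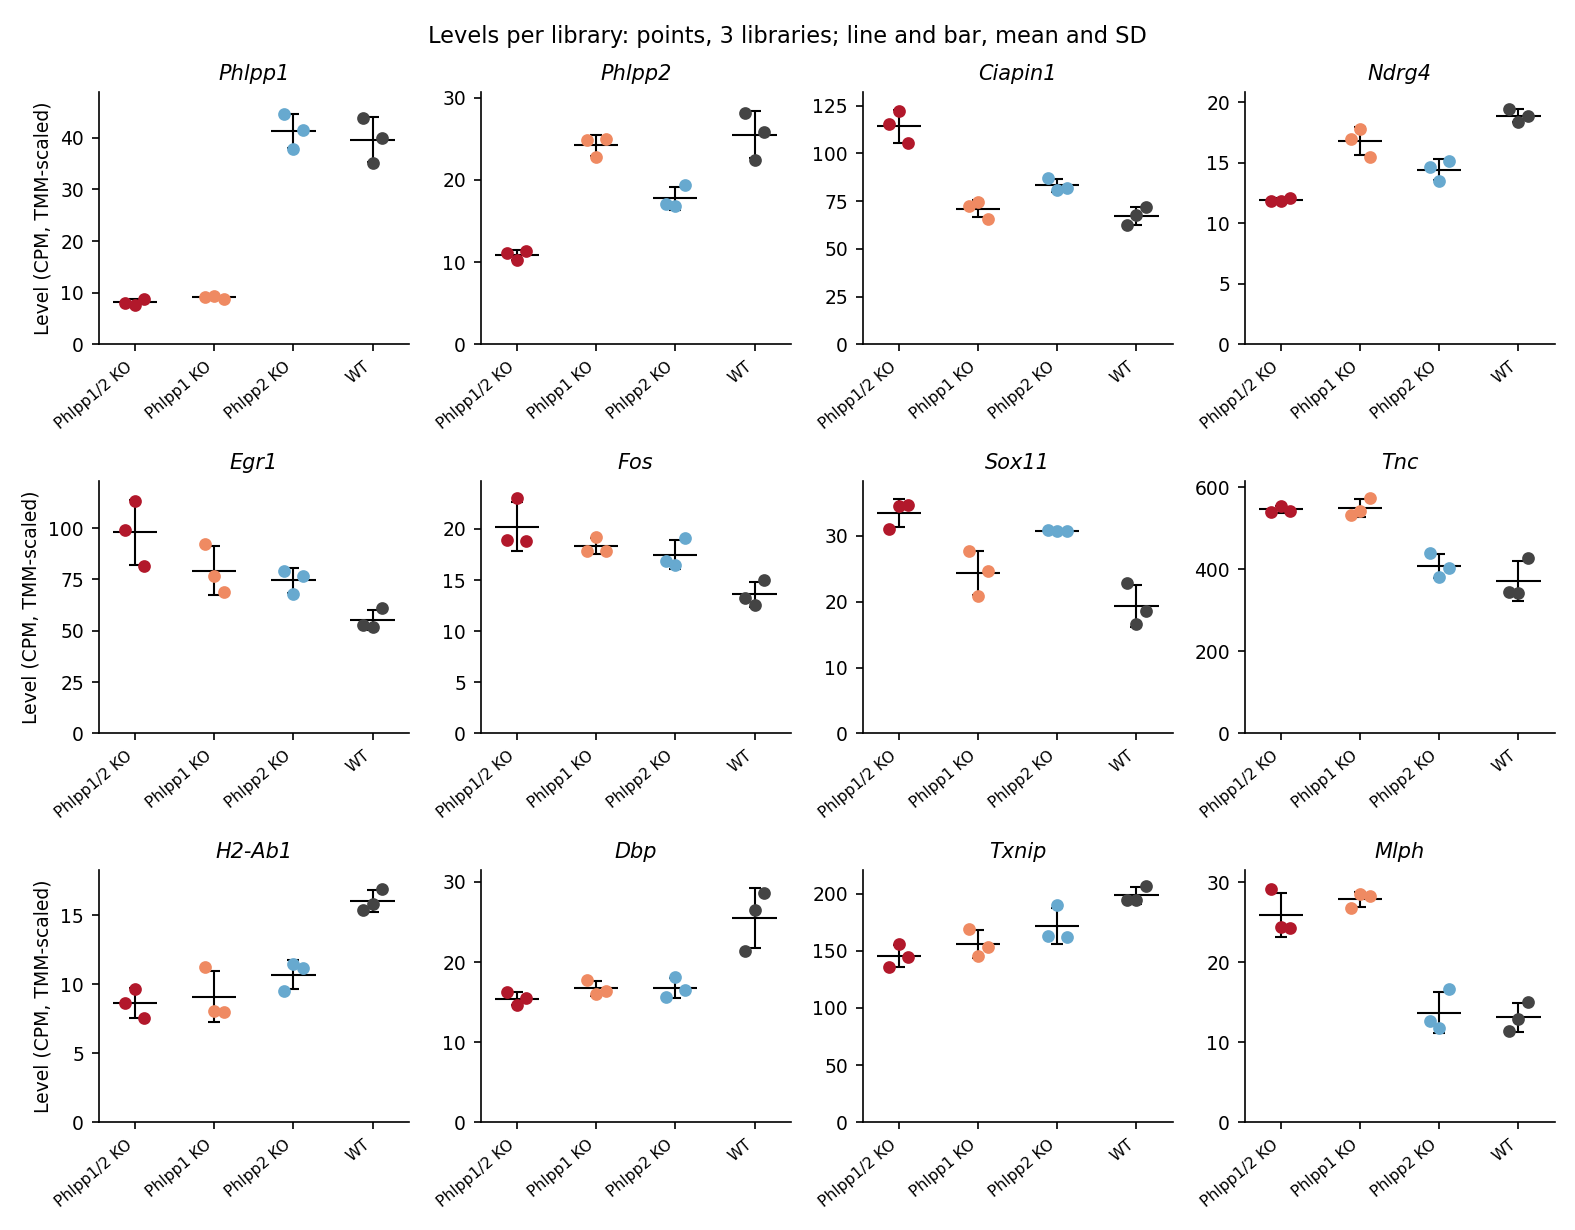
Level in CPM (y axis, from 0) of 12 genes in the libraries of 4 genotypes (x axis); points are libraries, the line is the mean and the bar the SD of 3. Phlpp1 is low in Phlpp1/2 KO and Phlpp1 KO, Ciapin1 is highest in Phlpp1/2 KO, and Dbp and H2-Ab1 are lower in every knockout library than in every WT library.

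Sox11, a SoxC transcription factor of skeletal progenitors, and Tnc, the matrix glycoprotein tenascin-C, also rose. Sox11 (chromosome 12, 27334264 to 27342574) stood at 31.0, 34.5 and 34.7 CPM in Phlpp1/2 KO, 20.9 to 27.6 CPM in Phlpp1 KO, 30.7 to 30.8 CPM in Phlpp2 KO and 22.8, 16.5 and 18.6 CPM in WT (log2 fold change 0.79, SE 0.12, adjusted p = 0.00901, edgeR). The Phlpp2 KO libraries were thus nearer to Phlpp1/2 KO than the Phlpp1 KO libraries were, although the difference between Phlpp1/2 KO and Phlpp1 KO did not pass (0.45, adjusted p = 0.626). Tnc (chromosome 4, 63959785 to 64047015) stood at 539.7, 555 and 544 CPM in Phlpp1/2 KO, 533 to 574 CPM in Phlpp1 KO, 382 to 441 CPM in Phlpp2 KO and 345, 342 and 429 CPM in WT (0.55, SE 0.08, adjusted p = 0.0130). Here it was Phlpp1 KO that lay at the level of Phlpp1/2 KO (difference -0.01, adjusted p = 0.984). The Sox11 call ended without Phlpp1/2 KO 2, WT 2 or WT 3 (adjusted p up to 0.0733), and the Tnc call without Phlpp1/2 KO 1 (0.0535), Phlpp1/2 KO 2, WT 1 or WT 2 (up to 0.0737).

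Among chondrocyte transcription factors Sox11 was the called member and the rest leaned the other way: 21 of 26 lay below 0, with a median of -0.14, and 8 were lower without overlap and 1 higher, beside 10.3% and 8.57% over all genes. Sox9, which sets chondrocyte identity, stood at 323, 311 and 295 CPM in Phlpp1/2 KO and 349.9, 387 and 407 CPM in WT, with no overlap but no call (-0.30, SE 0.19, adjusted p = 0.583). Its paralogue Sox8 was at 8.15, 9.21 and 6.79 CPM in Phlpp1/2 KO and 9.91, 14.6 and 12.1 CPM in WT (-0.60, adjusted p = 0.314). Cartilage matrix genes lay below 0 in 23 of 29 (median -0.17), but only 2 were lower without overlap, beside 10.3% of all genes, and the median ranged from -0.33 to -0.02 over the alternative settings. None was called by edgeR or DESeq2 (0 higher and 1 lower at an unadjusted p under 0.05). Prelp, a leucine-rich proteoglycan that anchors matrix to cells, stood at 95.9, 84.4 and 74.7 CPM in Phlpp1/2 KO and 121, 139 and 141 CPM in WT (-0.66, SE 0.25, adjusted p = 0.365). Col2a1, the main collagen of cartilage, overlapped, with 28739, 33004 and 20753 CPM in Phlpp1/2 KO and 26071, 32451 and 40258 CPM in WT.

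Enzymes that build glycosaminoglycan chains lay below 0 in 33 of 39 tested (median -0.09), with 14 lower and 2 higher without overlap, beside 10.3% lower and 8.57% higher over all genes. None was called by edgeR (1 higher and 7 lower at an unadjusted p under 0.05), and DESeq2 called 1. Has2, the main hyaluronan synthase, stood at 37.1, 33.3 and 48.1 CPM in Phlpp1/2 KO and 55.6, 50.7 and 52.4 CPM in WT (-0.42, adjusted p = 0.231), while Phlpp2 KO averaged 62.9 CPM. Chpf2, a chondroitin polymerising factor, was at 80.7, 78.7 and 75.6 CPM in Phlpp1/2 KO and 88.3, 87.6 and 95.5 CPM in WT (-0.21, adjusted p = 0.171). The unfolded protein response, by which secretory cells match folding capacity to load, had 30 of 34 members below 0 (median -0.12) and 12 lower without overlap, against the same 10.3%. Its sum was 10782, 11025 and 11115 CPM in Phlpp1/2 KO and 11825, 11800.0 and 12258 CPM in WT. Its 0 calls by edgeR stood beside 12 lower at an unadjusted p under 0.05 and 1 call by DESeq2. Hspa5, the chaperone BiP, was at 1388, 1546 and 1508 CPM in Phlpp1/2 KO and 1751, 1608 and 1767 CPM in WT (-0.21, adjusted p = 0.250).

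Txnip, an inhibitor of thioredoxin and of glucose uptake and a FOXO target, fell. It stood at 136, 155 and 145 CPM in Phlpp1/2 KO, 145 to 169 CPM in Phlpp1 KO, 162 to 189.5 CPM in Phlpp2 KO and 194, 194 and 206 CPM in WT, so that every knockout library was below every WT library. The log2 fold change was -0.45 (SE 0.08, adjusted p = 0.0355, edgeR), and the call ended whichever of the 6 libraries was left out (adjusted p up to 0.202, and 0.193 without Phlpp1/2 KO 1). Of 28 FOXO targets tested (32 listed), 23 lay below 0, with a median of -0.13, and 11 were lower and 0 higher without overlap, beside 10.3% lower and 8.57% higher over all genes. Foxo1 itself was at 39.4, 37.3 and 39.9 CPM in Phlpp1/2 KO and 43.8, 44.3 and 51.0 CPM in WT (-0.25, adjusted p = 0.225), and Foxo3 at 91.7, 87.4 and 91.5 CPM in Phlpp1/2 KO and 108, 99.9 and 114 CPM in WT (-0.25, adjusted p = 0.204). The sum over the list was 2594, 2504 and 2573 CPM in Phlpp1/2 KO and 2816, 2839.9 and 2944 CPM in WT.

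The promoter of Txnip (chr3:96557707-96558006, plus strand, GRCm38.p6, RefSeq) is shown for the forkhead motif GTAAACA. Capitals mark that motif and the CCAAT box on either strand; the marked stretches do not overlap.
Txnip promoter: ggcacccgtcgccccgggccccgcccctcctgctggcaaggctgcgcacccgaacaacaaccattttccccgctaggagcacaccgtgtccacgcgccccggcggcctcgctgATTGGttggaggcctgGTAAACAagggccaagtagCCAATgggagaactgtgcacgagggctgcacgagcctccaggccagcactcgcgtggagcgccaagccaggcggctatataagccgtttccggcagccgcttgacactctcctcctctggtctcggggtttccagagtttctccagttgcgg
GTAAACA begins at -121 and the CCAAT boxes at -137 and -102. Of the 21 called genes with a promoter, 4 held GTAAACA, namely Txnip, Fcgrt, Asb16 and Mid1, and all 4 were lower in Phlpp1/2 KO. These calls were frail: Txnip, Fcgrt and Mid1 were called in 0 of the 6 refits without 1 library, and Asb16 in 1. The motif was in 3.65% of all 32841 promoters and in 3.08% of the 10532 tested genes that had a promoter. CCAAT was in 10 of the 21, beside 42.8% of those tested genes and 37.4% of all promoters.

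Dbp, an output factor of the circadian clock, fell. Dbp (chromosome 7, 45705088 to 45710203) stood at 16.2, 14.6 and 15.5 CPM in Phlpp1/2 KO, 16.0 to 17.8 CPM in Phlpp1 KO, 15.6 to 18.2 CPM in Phlpp2 KO and 21.4, 26.5 and 28.6 CPM in WT. All 9 knockout libraries were below all WT libraries, and the knockouts overlapped among themselves. The log2 fold change against WT was -0.73 (SE 0.10, adjusted p = 0.00851, edgeR), and the call ended without Phlpp1/2 KO 2, WT 2 or WT 3 (adjusted p up to 0.0593). Of 27 clock genes 20 lay below 0 (median -0.11), with 8 lower and 2 higher without overlap, beside 10.3% and 8.57% over all genes. The repressor Nr1d1 was at 56.8, 51.6 and 49.8 CPM in Phlpp1/2 KO and 69.5, 64.0 and 76.7 CPM in WT (-0.41, SE 0.08, adjusted p = 0.0904), and Per2 at 13.8, 15.2 and 12.49 CPM in Phlpp1/2 KO and 18.8, 17.4 and 21.98 CPM in WT (-0.49, SE 0.11, adjusted p = 0.15). Arntl, the activator BMAL1, lay above WT without overlap, at 13.3, 12.7 and 13.0 CPM in Phlpp1/2 KO and 12.54, 11.6 and 11.2 CPM in WT (0.14, adjusted p = 0.701). DESeq2, which called more genes than edgeR over the whole table, called 4 members of this list. The list median was -0.21 in Phlpp1 KO and -0.08 in Phlpp2 KO against the same WT libraries.

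H2-Ab1, the beta chain of the class II molecule I-A that presents peptides to T cells, fell. It (chromosome 17, 34257689 to 34269419) stood at 8.66, 9.70 and 7.53 CPM in Phlpp1/2 KO, 8.03 to 11.2 CPM in Phlpp1 KO, 9.51 to 11.4 CPM in Phlpp2 KO and 15.4, 15.9 and 16.9 CPM in WT (log2 fold change -0.90, SE 0.14, adjusted p = 0.0138, edgeR). The groups were apart, and the call ended without Phlpp1/2 KO 1 (adjusted p = 0.0848), Phlpp1/2 KO 3 or any WT library (up to 0.104). Other class II genes lay on either side of 0. H2-Eb1, the I-E beta chain, stood at 2.48, 2.81 and 2.097 CPM in Phlpp1/2 KO and 2.08, 1.98 and 2.33 CPM in WT (0.21, adjusted p = 0.746), and Cd74, the invariant chain, at 0.741, 0.765 and 0.561 CPM in Phlpp1/2 KO and 0.226, 0.504 and 0.382 CPM in WT (0.85, adjusted p = 0.390). H2-DMb1, a peptide loader, was at 2.80, 2.11 and 2.66 CPM in Phlpp1/2 KO and 4.44, 5.30 and 4.55 CPM in WT (-0.92, SE 0.19, adjusted p = 0.0904), and has a relative, H2-DMb2, of 95.75% identity over 1081 bases. Of 27 genes of antigen presentation tested, 22 lay below 0 (median -0.19), with 13 lower and 1 higher without overlap, beside 10.3% lower and 8.57% higher over all genes. Their sum was 497, 489.6 and 517 CPM in Phlpp1/2 KO and 583, 567 and 546 CPM in WT.

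Interferon response genes lay below 0 in 35 of 42 tested (median -0.21), beside a median of -0.53 in Phlpp1 KO and -0.09 in Phlpp2 KO against the same WT libraries. None was called in Phlpp1/2 KO by edgeR or DESeq2 (2 higher and 11 lower at an unadjusted p under 0.05), and the sums overlapped, at 418, 409 and 453 CPM in Phlpp1/2 KO and 463, 496 and 429 CPM in WT. Markers of macrophages and osteoclasts, which present antigen, were in the digest at low level. Of 26 listed, 19 were tested, of which 15 lay above 0 (median 0.32, ranging from 0.188 to 0.51 over the alternative settings). None was called by edgeR or DESeq2, and 6 were higher and 0 lower at an unadjusted p under 0.05. Their sums overlapped, at 90.4, 66.0 and 82.8 CPM in Phlpp1/2 KO and 75.0, 75.3 and 68.7 CPM in WT. Without overlap, 7 of the 19 were higher and 1 lower, beside 8.57% and 10.3% over all genes. Among the 7 were Fcgr3, Mrc1 and Lyz2, with log2 fold changes of 0.93, 0.68 and 0.61 (adjusted p = 0.219, 0.418 and 0.438, edgeR). Of defining markers that overlapped, Csf1r was at 2.32, 1.41 and 2.81 CPM in Phlpp1/2 KO and 1.54, 2.45 and 1.53 CPM in WT. Adgre1 was at 1.29, 0.826 and 0.650 CPM in Phlpp1/2 KO and 0.588, 0.649 and 0.650 CPM in WT. Fewer cells of a type and less RNA per cell cannot be told apart in bulk libraries, and the part of such cells in the H2-Ab1 result was not tested.

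Genes of DNA replication and mitosis leaned higher in Phlpp1/2 KO, while none of them was called by edgeR. Of 44 genes 43 lay above 0, with a median log2 fold change of 0.41 beside -0.00 over all genes, and in 29 all Phlpp1/2 KO libraries were above all WT libraries, which was so for 8.57% of all genes. At an unadjusted p under 0.05, 24 were higher and 0 lower, beside 827 higher and 1009 lower of all 16565 genes tested. DESeq2 called 4 of the list and limma-voom 0. The sum was 5099.9, 4622 and 4972 CPM in Phlpp1/2 KO, 4310.3 to 4778 CPM in Phlpp1 KO, 3917 to 5335 CPM in Phlpp2 KO and 4251, 4173 and 3820.2 CPM in WT, so that Phlpp1/2 KO and WT were apart and Phlpp2 KO overlapped both.

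The members differed widely in the size of their log2 fold change. Cenpe, a kinesin of the kinetochore, stood at 38.5, 32.1 and 45.8 CPM in Phlpp1/2 KO and 23.7, 18.99 and 21.8 CPM in WT (log2 fold change 0.85, SE 0.24, adjusted p = 0.266, edgeR). Kif23, a kinesin of cytokinesis, was at 57.5, 53.6 and 59.96 CPM in Phlpp1/2 KO and 36.8, 42.4 and 31.1 CPM in WT (0.63, SE 0.17, adjusted p = 0.225). The groups were apart in both genes, whereas Mki67, the proliferation antigen, overlapped between them, at 179, 131 and 215 CPM in Phlpp1/2 KO and 133, 104 and 102 CPM in WT. Foxm1, the transcription factor of the mitotic programme, was at 63.0, 56.1 and 53.5 CPM in Phlpp1/2 KO and 40.7, 45.7 and 40.8 CPM in WT (0.44, adjusted p = 0.275). Other members lay close to 0. Mcm2, a subunit of the replicative helicase, stood at 268, 261 and 253 CPM in Phlpp1/2 KO and 265, 238 and 257 CPM in WT (0.04, adjusted p = 0.842), and Mcm4, at -0.01, was the 1 gene of the list below 0.

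Several other lists leaned lower without a call. WNT pathway genes lay below 0 in 42 of 54 tested (median -0.15), and Hedgehog and PTHrP pathway genes in 15 of 18 (median -0.21, ranging from -0.285 to -0.114 over the alternative settings). In neither did edgeR or DESeq2 call a member, beside 1 higher and 12 lower WNT genes and 0 higher and 6 lower Hedgehog genes at an unadjusted p under 0.05. Lgr6, a receptor for R-spondins, stood at 117, 99.9 and 108 CPM in Phlpp1/2 KO and 153, 129 and 149 CPM in WT (-0.41, SE 0.11, adjusted p = 0.225). Ptch1, a Hedgehog receptor and target, was at 56.4, 57.7 and 46.8 CPM in Phlpp1/2 KO and 61.7, 64.2 and 77.4 CPM in WT (-0.34, adjusted p = 0.322). Genes of hypertrophy, the last stage of chondrocyte differentiation, had 13 of 19 below 0, with a median of -0.26 that ranged from -0.345 to -0.0856 over the alternative settings. Of these Col10a1, its defining collagen, overlapped at 621, 694 and 387 CPM in Phlpp1/2 KO and 651, 715 and 788 CPM in WT, and Mmp13, a collagenase, had a log2 fold change of 0.03 (adjusted p = 0.982). Oxidative phosphorylation genes lay above 0 in 39 of 45, but with a median of only 0.05 and 1 gene higher without overlap, beside 8.57% of all genes.

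Skeletal muscle markers, genes of muscle fibres and their precursors, had 18 of 20 tested members below 0 (27 listed) and a median of -0.76. Their sum was 31.5, 28.7 and 46.0 CPM in Phlpp1/2 KO and 41.0, 153.8 and 37.4 CPM in WT, so that WT 2 stood apart and the other libraries overlapped. Myog, a myogenic transcription factor, followed it at 3.25, 2.172 and 5.38 CPM in Phlpp1/2 KO and 6.16, 30.7 and 5.47 CPM in WT. None of the list was called by edgeR or DESeq2 (0 higher and 4 lower at an unadjusted p under 0.05), and its median ranged from -1.10 to -0.08 over the alternative settings. Endothelial markers had 11 of 15 above 0 with overlapping sums, and none of 22 erythroid, lymphoid and neutrophil markers passed the filter on low counts.

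**Figure D3:**
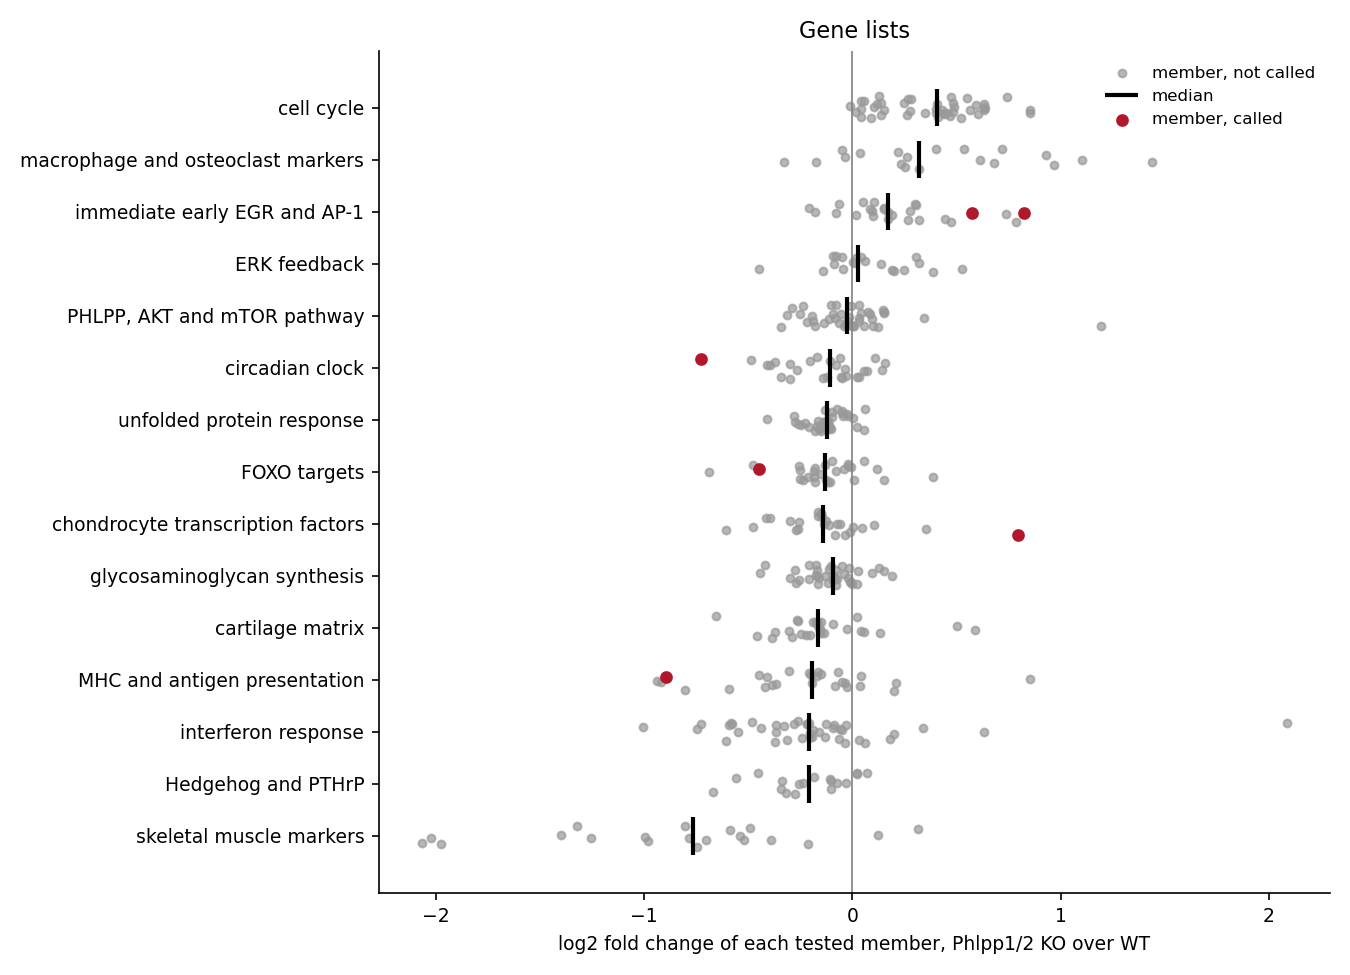
Log2 fold change of each tested member (x axis) in 15 gene lists (rows), Phlpp1/2 KO over WT; black bars are list medians and red points called members. Cell cycle genes lie almost all above 0 (median 0.41), and FOXO targets, unfolded protein response and interferon genes mostly below.

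Single genes outside these themes came close to the threshold. Itgb4, the integrin of hemidesmosomes, stood at 10.9, 13.2 and 12.55 CPM in Phlpp1/2 KO and 28.3, 18.95 and 22.98 CPM in WT (log2 fold change -0.94, SE 0.17, adjusted p = 0.0554, edgeR). Cxcl14, a chemokine, was at 42.7, 36.7 and 41.9 CPM in Phlpp1/2 KO and 56.4, 63.8 and 61.1 CPM in WT (-0.58, SE 0.11, adjusted p = 0.0551). In both the groups were apart. Hmox1, the heme oxygenase induced by oxidative stress, lay higher at 393, 459.8 and 402 CPM in Phlpp1/2 KO and 339, 322 and 305 CPM in WT (0.38, SE 0.08, adjusted p = 0.0948). The cytokine Il11 was far from the threshold (0.88, adjusted p = 0.345, edgeR). It stood at 27.4, 25.6 and 29.9 CPM in Phlpp1/2 KO and 15.8, 14.9 and 14.3 CPM in WT, without overlap. The single knockouts spread widely, from 20.3 to 41.3 CPM in Phlpp1 KO and from 9.85 to 27.1 CPM in Phlpp2 KO.

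A further set of called protein-coding genes, on other chromosomes than the targeted genes, changed by less than 2-fold, apart from Asb16. Among those that fell, Abca3, a lipid transporter, stood at 14.3, 14.2 and 16.4 CPM in Phlpp1/2 KO and 24.2, 20.4 and 24.01 CPM in WT (log2 fold change -0.61, adjusted p = 0.0290, edgeR), and St14, the protease matriptase, at 5.28, 5.32 and 5.55 CPM in Phlpp1/2 KO and 8.69, 8.11 and 8.64 CPM in WT (-0.65, adjusted p = 0.0290). Slc43a2, a transporter of neutral amino acids, was at 9.37, 8.32 and 9.21 CPM in Phlpp1/2 KO and 13.9, 14.1 and 13.7 CPM in WT (-0.63, adjusted p = 0.0323). Also lower in that set were Fcgrt, the neonatal Fc receptor (-0.43), Asb16 (-1.21), Ggn (-0.86) and Mid1, a ubiquitin ligase of microtubules (-0.97), whose transcript has a near-identical pseudogene. Among those that rose, Cdca4 stood at 81.6, 81.5 and 79.4 CPM in Phlpp1/2 KO and 63.8, 65.9 and 66.3 CPM in WT (0.31, adjusted p = 0.0225). Fgfr1op, a centrosomal protein, was at 31.3, 31.7 and 35.5 CPM in Phlpp1/2 KO and 25.4, 24.04 and 24.1 CPM in WT (0.42, adjusted p = 0.0247), and Rbmx, an RNA-binding protein, rose by 0.32 (adjusted p = 0.0473). Over 183 bases, 5.22% of its transcript, Fgfr1op is identical to Tagap1. Abca3, Asb16 and Cdca4 kept a call in 2, 1 and 1 of the 6 refits without 1 library. No other gene of this set was called in any of those refits. In all genes of the set but Fcgrt and Asb16, every knockout library, single or double, lay on the same side of every WT library. Abca3, for instance, was at 14.5 to 18.2 CPM in Phlpp1 KO and 14.8 to 16.7 CPM in Phlpp2 KO. The same split is described further on for genes with near-identical copies.

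Called genes also lay on the chromosomes of the targeted genes. On chromosome 1, Mlph, a melanophilin that links vesicles to myosin, lies 15.35 Mb from Phlpp1 and stood at 29.1, 24.4 and 24.2 CPM in Phlpp1/2 KO, 26.7 to 28.6 CPM in Phlpp1 KO, 11.8 to 16.7 CPM in Phlpp2 KO and 11.5, 12.9 and 15.1 CPM in WT (log2 fold change 0.98, SE 0.13, adjusted p = 0.00433, edgeR). D2hgdh, a mitochondrial dehydrogenase 12.44 Mb away, stood at 5.09, 5.32 and 5.02 CPM in Phlpp1/2 KO, 4.62 to 5.22 CPM in Phlpp1 KO, 9.97 CPM on average in Phlpp2 KO and 10.6, 9.69 and 11.8 CPM in WT (-1.06, SE 0.11, adjusted p = 0.000339). Libraries without Phlpp1 were on 1 side and libraries with it on the other in both genes. Wdfy1, an endosomal protein 26.54 Mb away, showed the same split, at 8.47, 7.77 and 8.62 CPM in Phlpp1/2 KO, 8.04 to 9.30 CPM in Phlpp1 KO, 24.2 to 28.3 CPM in Phlpp2 KO and 15.8, 15.6 and 21.5 CPM in WT (-1.09, SE 0.13, adjusted p = 0.00139). Efhd1, a calcium-binding protein of mitochondria 19 Mb away, was at 1.26, 1.38 and 1.09 CPM in Phlpp1/2 KO and 0.498, 0.432 and 0.459 CPM in WT (1.42, SE 0.26, adjusted p = 0.0497), a call that ended without any 1 of the 6 libraries. The long noncoding RNA Gm29337, 17.41 Mb away, had 0.902, 1.32 and 0.797 CPM in Phlpp1/2 KO and 0.0453, 0.108 and 0.115 CPM in WT, which is at most 3 counts in a WT library (adjusted p = 0.00268).

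On chromosome 8, Ciapin1, a factor of iron-sulfur cluster assembly 15.08 Mb from Phlpp2, stood at 115, 122 and 105 CPM in Phlpp1/2 KO, 65.9 to 74.4 CPM in Phlpp1 KO, 80.8 to 87.2 CPM in Phlpp2 KO and 62.6, 67.7 and 72.0 CPM in WT (log2 fold change 0.76, SE 0.07, adjusted p = 0.000217, edgeR). Every Phlpp1/2 KO library was above every other library, with Phlpp2 KO next. Ndrg4, 14.21 Mb from Phlpp2, stood at 11.9, 11.8 and 12.1 CPM in Phlpp1/2 KO, 15.5 to 17.8 CPM in Phlpp1 KO, 13.5 to 15.1 CPM in Phlpp2 KO and 19.5, 18.3 and 18.9 CPM in WT (-0.66, SE 0.08, adjusted p = 0.00159). Within 20 Mb of Phlpp1, 3 genes were called higher and 1 lower among 144 others tested (2.78%), and within 20 Mb of Phlpp2, 1 higher and 1 lower among 344 (0.581%), beside 0.235% of all genes. An effect of the lost phosphatase and a difference in the DNA carried along with each targeted allele cannot be told apart from these libraries.

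**Figure D4:**
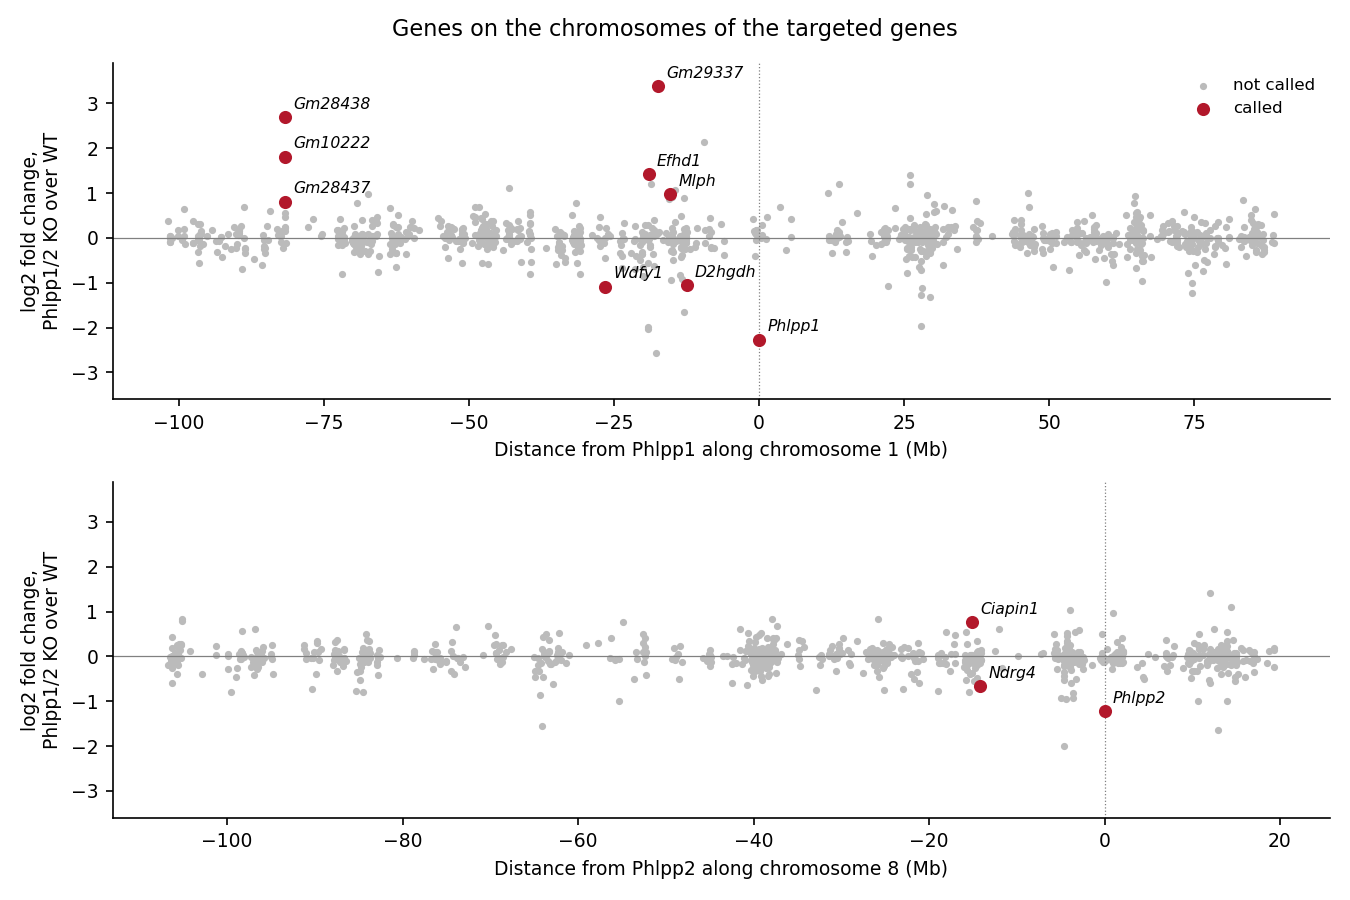
Log2 fold change of tested genes, Phlpp1/2 KO over WT (y axis), by distance in Mb from Phlpp1 on chromosome 1 and Phlpp2 on chromosome 8 (x axis); red points are called genes. Called genes besides the targets lie toward the chromosome start, between 12.44 and 26.54 Mb from Phlpp1 with another group at 81.67 Mb, and near 15 Mb from Phlpp2.

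Large fold changes were found in genes with near-identical copies, of which the greatest, -4.89 on the log2 scale, was that of Rps2-ps10. mt-Nd3, a complex I subunit encoded in the mitochondrial genome (M, 9459 to 9806), stood at 1.997, 2.203 and 1.74 CPM in Phlpp1/2 KO and 18.6, 21.3 and 19.2 CPM in WT (log2 fold change -3.31, adjusted p = 1.46e-07, edgeR). Gm28438, its nuclear copy on chromosome 1 (24612775 to 24613119, minus strand), stood at 19.9, 14.9 and 17.4 CPM in Phlpp1/2 KO and 2.44, 3.42 and 2.18 CPM in WT (2.69, adjusted p = 7.8e-05). The members of the pair thus moved in opposite directions. The copy took 87.12% to 90.9% of their joint counts in Phlpp1/2 KO and 10.18% to 13.87% in WT, while the sum averaged 19.4 ± 2.43 CPM in Phlpp1/2 KO and 22.4 ± 1.99 CPM in WT (SD, n = 3 each). Aligned over 345 bases, the transcripts differ at 1 position, T3C, counted from 1 at the 5′ end of mt-Nd3. The mt-Nd3 transcript has 348 bases and that of Gm28438 has 345. Their first 60 bases (GENCODE vM21, GRCm38) are shown because they hold the only base that differs within the alignment, which is the capital letter.
mt-Nd3: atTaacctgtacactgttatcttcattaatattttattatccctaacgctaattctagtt
Gm28438: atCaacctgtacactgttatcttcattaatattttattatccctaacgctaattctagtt

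Rnps1, a splicing and exon junction factor, and its processed pseudogene Gm9825 on chromosome 6 (7982541 to 7983383, minus strand) showed the same opposition. Rnps1 stood at 148.3, 147.6 and 146 CPM in Phlpp1/2 KO and 111.5, 109.98 and 111.7 CPM in WT (0.41, adjusted p = 0.00159, edgeR), and Gm9825 at 2.09, 2.69 and 2.01 CPM in Phlpp1/2 KO and 16.7, 16.2 and 15.8 CPM in WT (-2.84, adjusted p = 9.68e-08). Their alignment of 843 bases holds 5 mismatches, C425A, C514T, T743C, T764C and C938T, counted from 1 at the 5′ end of the Rnps1 transcript. A stretch with a pair of them (capitals) is given from base 733 to 792 of Rnps1 and 479 to 538 of Gm9825, to show how little sequence separates the copies.
Rnps1: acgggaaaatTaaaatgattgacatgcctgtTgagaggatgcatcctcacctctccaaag
Gm9825: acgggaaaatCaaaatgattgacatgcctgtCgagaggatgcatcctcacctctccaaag

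Rps2, a protein of the small ribosomal subunit, followed the same pattern with its pseudogene Rps2-ps10, which matches it over 934 bases with 6 mismatches. Rps2 stood at 2955, 2992 and 2659 CPM in Phlpp1/2 KO and 1573, 1822 and 1616 CPM in WT (log2 fold change 0.78, adjusted p = 0.000217, edgeR), and Rps2-ps10 at 20.5, 19.2 and 15.4 CPM in Phlpp1/2 KO and 504, 609 and 518 CPM in WT (-4.89, adjusted p = 7.17e-09). The pseudogene took 0.5765% to 0.6895% of the pair's counts in Phlpp1/2 KO and 24.26% to 25.05% in WT. The sum of the pair was apart too, at 2887 ± 185 CPM in Phlpp1/2 KO and 2214 ± 190 CPM in WT (mean and SD). The called pseudogenes Gm6433, Gm12366 and Gm6139, all lower, are further copies of Rps2. The last called pseudogene, Gm15432, which is 98.46% identical to 1810037I17Rik over 195 bases, stood at 4.86, 4.86 and 5.11 CPM in Phlpp1/2 KO and 1.90, 2.67 and 2.14 CPM in WT (1.14, adjusted p = 0.0132). The mitochondrial mt-Nd4l and mt-Co3 and their copies Gm10222 and Gm28437, identical over 294 and 783 bases, split likewise. Gm10222 took 63.84% to 70.76% of the counts of its pair in Phlpp1/2 KO and 19.53% to 21.58% in WT, and Gm28437 took 57.55% to 58.58% in Phlpp1/2 KO and 36.03% to 39.2% in WT.

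In each of these pairs the single knockouts lay with Phlpp1/2 KO and apart from WT. mt-Nd3 averaged 1.56 CPM in Phlpp1 KO and 1.63 CPM in Phlpp2 KO, and Gm9825 averaged 2.07 CPM in Phlpp1 KO and 2.02 CPM in Phlpp2 KO. When the counts of Rps2, Rnps1, mt-Nd3, mt-Nd4l and mt-Co3 were each added to those of their copies before the fit, an alternative chosen after seeing the data, none of these 5 was called by edgeR, with adjusted p = 0.0942 for Rps2 (log2 fold change 0.39), 0.101 for Rnps1 (0.24), 0.659 for mt-Nd3 (-0.20), 0.797 for mt-Nd4l (0.12) and 0.415 for mt-Co3 (0.20). Of these 5, mt-Co3 was not called without summing either. Summed Rps2 stayed apart, at 2681 to 3015 CPM in Phlpp1/2 KO and 2076 to 2421 CPM in WT. So did summed Rnps1, at 148.3 to 150.4 CPM in Phlpp1/2 KO and 125.2 to 127.8 CPM in WT. The fit with copies summed called 16 genes in all, 9 higher and 7 lower. Gm15432, whose counts were not joined to those of its relative, was among them (1.15, adjusted p = 0.0230), as were Egr1, Sox11, Tnc, Ciapin1, Mlph, Dbp and H2-Ab1, while Fos and Txnip were not. Whether the WT libraries were sequenced or counted apart from the others is not stated in the labels, and such a difference and the genotype cannot be told apart.

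**Figure D5:**
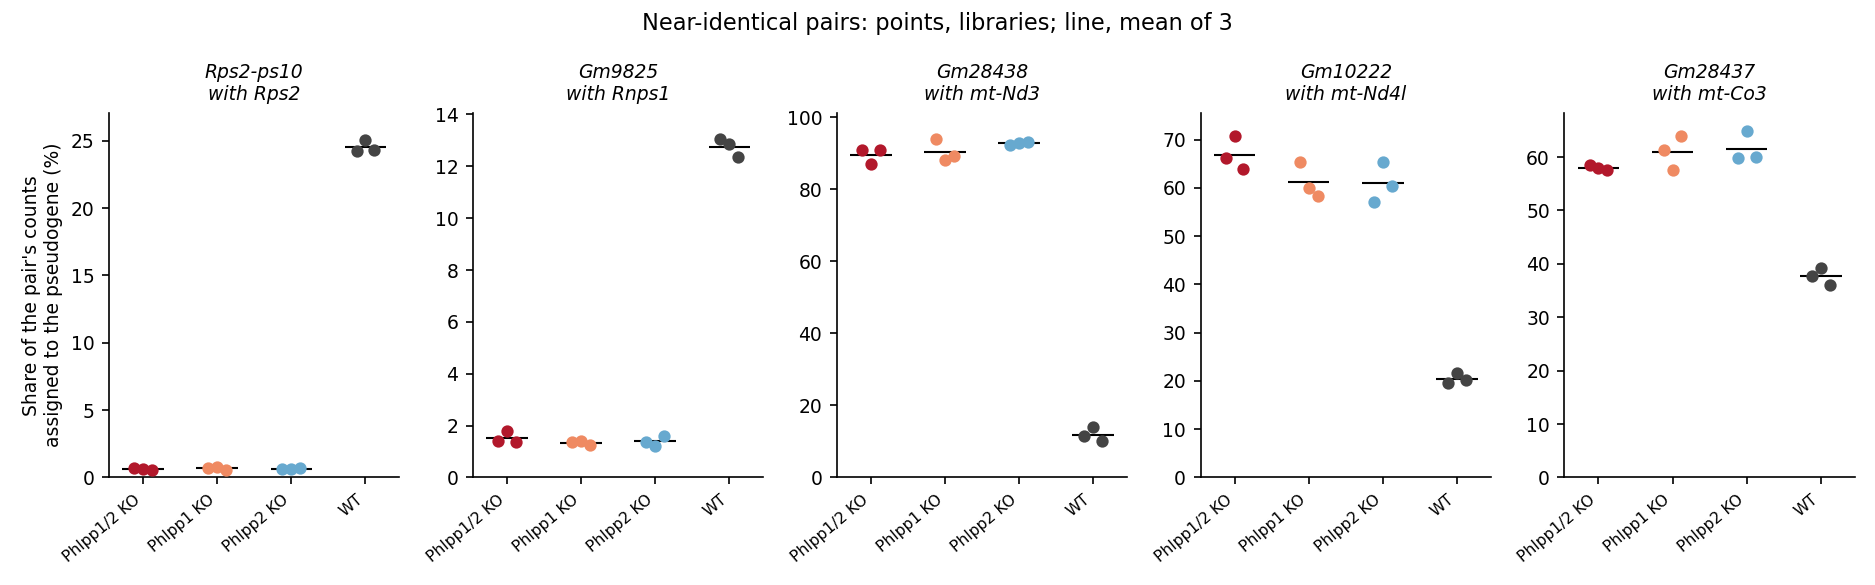
Share of a pair's counts assigned to the copy, in percent (y axis), per library in 4 genotypes (x axis) for 5 gene and copy pairs; points are libraries. All 9 knockout libraries lie together and the 3 WT libraries apart, with 87.12% to 90.9% in Phlpp1/2 KO and 10.18% to 13.87% in WT for Gm28438.

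Phlpp1/2 KO was also set against each single knockout, in the same fit. Against Phlpp1 KO edgeR called 2 genes (0.0121%, and 0.00604% in either direction), Phlpp2 itself, lower, and Ciapin1, higher (log2 fold change 0.69, adjusted p = 0.0028), while 7.9% of genes had an unadjusted p under 0.05. Against Phlpp2 KO it called 12 genes (0.0724%), 6 higher and 6 lower (0.0362% each, beside 8.84% at an unadjusted p under 0.05), among them Phlpp1 (-2.33, adjusted p = 4.83e-08), Phlpp2 (-0.70), Wdfy1 (-1.63, adjusted p = 5.9e-05), D2hgdh (-0.95, adjusted p = 0.00358), Gm29337, Mlph (0.92, adjusted p = 0.0219) and Ciapin1 (0.46, adjusted p = 0.0439). Egr1, Fos, Sox11, Tnc, Dbp, Txnip and H2-Ab1 did not pass in either comparison. Their log2 differences from Phlpp1 KO were 0.31 for Egr1, 0.15 for Fos, -0.12 for Dbp and -0.08 for H2-Ab1. Against the shared WT libraries, 89 genes were called in Phlpp1 KO (0.537%) and 20 in Phlpp2 KO (0.121%). Set against Phlpp2 KO, the count of 12 became 4 when Phlpp1/2 KO 1 was left out, 132 when Phlpp1/2 KO 3 was, and 7 when WT 2 was, which enters through the shared estimate of spread. It was 3 without Phlpp1/2 KO 1 and the Phlpp1 KO library that had 13.93 CPM of Xist.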

How the data were processed

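Bulk RNA of 12 libraries, 3 for each of 4 genotypes, was sequenced. The authors deposited raw read counts per gene, which per the submitters' processing notes came from bcl2fastq 2.17, STAR 2.5.2b, mm10 and featureCounts of Subread 1.5.2; how multimapping reads and strand were handled is not stated there. Genes without a symbol (174, 0.00419% of counts) were not set aside for that reason and met the same filter on low counts.

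The 12 libraries entered 1 edgeR 4.0.16 quasi-likelihood fit by genotype (R 4.3.3, robust, TMM factors, filterByExpr, 8 residual degrees of freedom, BCV 0.105), which set 32750 genes aside. Calls were made at a Benjamini-Hochberg adjusted p under 0.05 over all genes tested, and every adjusted p given without a tool is from this fit. An exact permutation test of 3 against 3 libraries cannot go below 0.1 and was not used. The code was tested on simulated data. DESeq2 1.42.0, limma-voom 3.58.1, other filters and scalings, left-out libraries and a replicate block were tried as alternatives. Positions are from GENCODE vM21, near-identical copies from BLAST+ 2.17.0 (at least 95% identity over 150 bases), and promoters from RefSeq.

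The members and the 43 gene lists were chosen with earlier results of these data known. Named genes were the called genes with at least 1 CPM and no overlap (up to 15 rises and 15 falls), a fixed set of cartilage, AKT and targeted genes, chondrocyte markers, and from each list its called members or up to 3 with the smallest adjusted p. Egr2, Arc, Arntl, H2-Eb1, Cd74, Csf1r, Adgre1, Mki67, Mcm2 and Mcm4 were added after their values were seen. A gene that this rule names is not reported here.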

Additional observations from a re-analysis of the deposited data

How the results depend on the processing

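The targeted genes were called with the same sign under every alternative that was run: without 1 library, the log2 fold change of Phlpp1 in Phlpp1/2 KO against WT stayed between -2.345 and -2.18, and that of Phlpp2 in Phlpp1/2 KO against WT between -1.3 and -1.133. The count of 39 genes between Phlpp1/2 KO and WT was less stable. DESeq2 gave 160 (71 higher, 89 lower, all 39 among them), no filter on low counts 102, protein-coding nuclear genes alone 16, and near-identical copies summed, an alternative chosen after seeing the data, 16. Without 1 library it ranged from 18 to 34. The count of 2 against Phlpp1 KO became 20 with DESeq2, 14 with no filter and 2 to 4 without 1 library. The count of 12 against Phlpp2 KO became 39 with DESeq2, 32 with no filter, 4 to 132 without 1 library and 3 without both low-Xist libraries. A fit with the replicate block called 29 genes between Phlpp1/2 KO and WT, but same-numbered libraries did not deviate together (r = -0.0907, 0.0718 and -0.148), so the numbers do not pair them. The 6 libraries alone gave 57 calls (24 higher, 33 lower). The sign of mt-Nd4l turned with copies summed (0.12). The causes were not tested. With 3 libraries a group, small changes of low genes were not detectable, and list medians (0.33 to 0.49 for cell cycle genes, -0.15 to -0.09 for FOXO targets) rest on genes that are not independent.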
